A study of Mus musculus with 18 samples.

Results

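Lymphatic endothelial RNA was followed in sorted blood vessel endothelium through 8 marker genes of lymphatic and sinus endothelium, Prox1, Lyve1, Stab1, Stab2, Pdpn, Mmrn1, Reln and Fxyd6. The genes were listed by name and matched to the Ensembl identifier of each symbol, and all 8 were found among the 55401 gene lines of the endothelial table. The series holds 18 mouse RNA-seq libraries, 3 in each of 6 groups. Endothelial cells of female wild-type C57BL/6 mice made up 12 libraries. Blood vessel endothelial cells (BECs) came from the mammary fat pad (BEC normal) or from the primary tumour grown there from EO771 cells (BEC tumour). High endothelial cells (HECs), which line the lymph node venules through which lymphocytes enter, came from lymph nodes of mice without a tumour (HEC normal) or from lymph nodes labelled as metastases in EO771-bearing mice (HEC tumour). The other 6 libraries were the EO771 mouse mammary tumour line itself, cultured with vehicle (EO771 vehicle) or with the lipid 12-HETE (EO771 12-HETE). BECs and HECs therefore differ in organ as well as in cell type, which cannot be told apart here.

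Lymphatic endothelium arises from veins when the homeodomain factor PROX1 is switched on, and PROX1 is needed for as long as the lymphatic identity lasts. LYVE1, STAB1 and STAB2 are surface receptors that bind hyaluronan or scavenge modified proteins, and they are also made by sinusoidal endothelium and by some macrophages. Podoplanin is a mucin-like surface protein of lymphatic endothelium, and fibroblasts and reticular cells of lymph nodes make it too. The sort took CD45-negative, CD31-high cells, with PNAd, the carbohydrate ligand of high endothelium, marking HECs. No stain for podoplanin or LYVE1 was used to remove lymphatic cells, and what the CD31 and PNAd gates did to the share of lymphatic cells was not tested.

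Promoter sequences of the genes are shown for Stab1 and Pdpn, because both were lower in HECs than in BECs with and without tumour. RefSeq windows of 300 bases on GRCm38.p6, from 250 bases before to 50 bases after a transcription start, held 7 of the 8 genes, and Lyve1 was not among them. The Stab1 window lies at chr14:31168592-31168891 and the Pdpn window at chr4:143299515-143299814, both on the minus strand, and both are printed 5′ to 3′ on the gene's strand. Capitals mark the letters CAGGTG or their reverse complement CACCTG, a form of the E-box.
Stab1: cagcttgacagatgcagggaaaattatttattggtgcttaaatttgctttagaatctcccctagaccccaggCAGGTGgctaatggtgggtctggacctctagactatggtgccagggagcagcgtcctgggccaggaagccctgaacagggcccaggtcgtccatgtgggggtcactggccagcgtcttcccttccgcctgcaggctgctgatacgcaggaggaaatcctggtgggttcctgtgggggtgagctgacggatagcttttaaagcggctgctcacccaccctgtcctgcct
Pdpn: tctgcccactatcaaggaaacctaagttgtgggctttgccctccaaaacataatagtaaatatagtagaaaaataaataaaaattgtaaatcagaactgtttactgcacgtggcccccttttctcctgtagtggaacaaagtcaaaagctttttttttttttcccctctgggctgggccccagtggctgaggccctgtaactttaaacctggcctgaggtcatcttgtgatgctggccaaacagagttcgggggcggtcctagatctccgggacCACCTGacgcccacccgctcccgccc
The E-box letters occurred once in each of these windows and once in that of Fxyd6, and 20.2% of the 32851 mouse windows of the same length held them on either strand. Of the 4 other strings searched on both strands, GGGCGG (a GC box, in 35.7% of all windows) was in the Pdpn window and both Prox1 windows. ACAAAG (a SOX core, in 18.7%) was in the Pdpn window and in 1 window of Prox1. Neither string was in the Stab1 window. TATAAA (13.6% of windows) was in 1 window of Prox1 and TTCCGG (an ETS core, 14.9%) was in that of Reln. The Reln window was 80.7% G or C, against a median of 52.7% over all windows, and held GGGCGG 6 times.

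Depth and sorting were checked first. The endothelial libraries summed to between 56410964 and 79357993 deposited units, but the values rose in steps of about 3.75 units, so 1 counted fragment appeared as about 3.75 units and the libraries held between 15002916 and 21133953 such steps. A group at 0 can therefore still hold up to 3 steps in a library, or 9.53 to 13.3 normalised counts, and this was used as the floor. Intervals and floors cover counting error only. The markers Glycam1, Chst4 and Fut7, which make the PNAd ligand or carry it, were high in HECs, but Chst4 was at 4.07 normalised counts in HEC normal replicate 2 against 19906 and 20205 in the other two. Fut7 was at 14255 in HEC tumour replicate 3 against 66478 and 65523. The HEC markers Madcam1 and Ackr1 were at no more than 16.6 and 4.93 normalised counts in any HEC library. Chst2, another high endothelial marker, was at 0 in all HEC libraries and averaged 1431 in BEC normal and 133 in BEC tumour. Selp was also called lower in HEC normal (9944 ± 342) than in BEC normal (24906.5 ± 277). Of the 8 high endothelial markers tested, 3 were called higher and 2 lower in HEC normal than in BEC normal. No pair of libraries within a group agreed within sampling noise. The study describes the endothelial libraries of a group as independent experiments, and the labels do not say how mice were assigned to libraries, so p-values measure the spread between these libraries.

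The 8 markers differed widely in abundance. Lyve1, Stab1 and Pdpn together made up 98.0% to 99.3% of the markers' summed CPM (counts scaled to the total of the library) in each group, as group means. Prox1, Mmrn1, Reln and Fxyd6 together made up at most 0.97%, in BEC tumour. Because long genes collect more fragments, levels of different genes were compared as CPM per kilobase of exon. On that scale Lyve1 had the highest level in each group, at 69.5 ± 4.7 (SD, n = 3) in normal and 17.3 ± 1.4 in tumour BECs, and 68.3 ± 10.1 in normal and 81.5 ± 1.7 in tumour HECs. It stood at the 95.3rd percentile of the genes tested in BEC normal. Prox1 was at 0.046 ± 0.025 in BEC tumour, its highest endothelial group, which was the 5.09th percentile. Against Cdh5, the endothelial cadherin, the Lyve1 level per kilobase was 32.1% in normal and 8.03% in tumour BECs, and 39.6% in normal and 50.5% in tumour HECs. The Prox1 level was 0.0063%, 0.021%, 0.0040% and 0.0035% of Cdh5 in the same order.

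**Figure D1:**
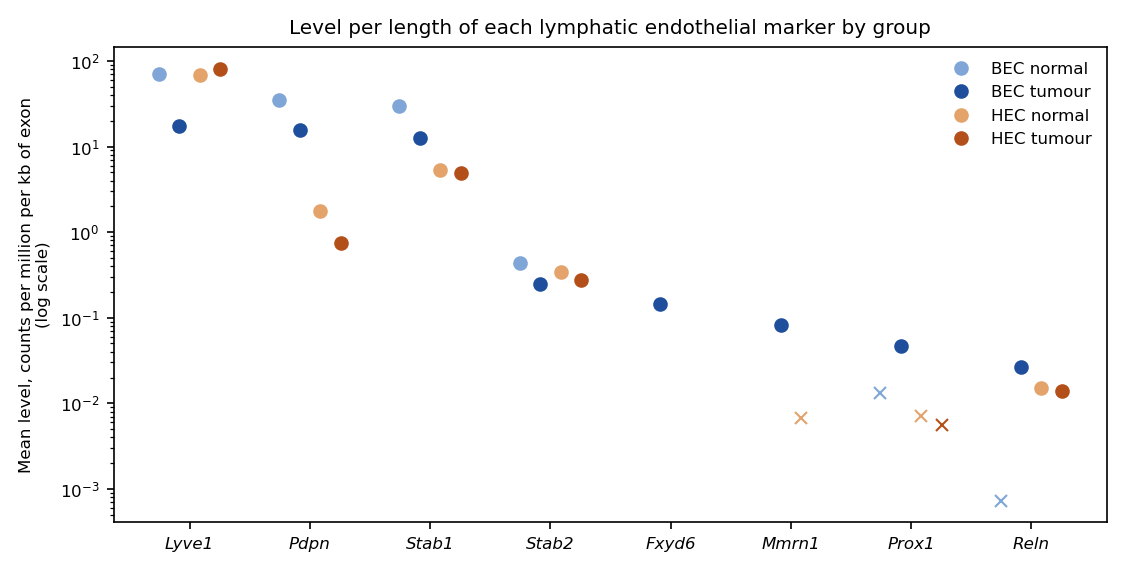
Mean level per length of each marker (vertical axis, CPM per kilobase of exon, log scale) in the 4 endothelial groups, ordered by the mean over groups. Circles are groups above the floor of 3 fragments per library and crosses are groups at or below it; a group at 0 cannot be drawn. Lyve1, Pdpn and Stab1 lie above Stab2 in every group, and Prox1 and Reln lie below 0.05 in every group.

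Prox1 (ENSMUSG00000010175, chr1:190118035-190170714, minus strand, GRCm38), the transcription factor that defines lymphatic identity, was close to the floor. Its normalised counts, deposited units divided by the size factor of the library, were 0, 18.8 and 4.06 in BEC normal. They were 13.9, 41.5 and 22.7 in BEC tumour. HEC normal gave 12.2, 0 and 0, and HEC tumour gave 9.23, 0 and 0. Of the 4 groups, BEC tumour alone had a mean above the floor (26.0 ± 14.1 against a floor of 9.86), and this was the only group in which every library held Prox1. Summed over libraries normal BECs held 5 fragments, tumour BECs 24, normal HECs 3 and tumour HECs 2. Prox1 was called in none of the comparisons. Between HEC tumour and BEC tumour the groups did not overlap, and BEC tumour was higher by 9.77 times in fragments per library (exact 95% interval 2.43 to 85.3), but the fit gave an adjusted p of 0.25. Leaving out HEC tumour replicate 1, the one library of that group with any Prox1, sets the group at 0, and the adjusted p was then 0.020. Prox1 passed the filter on low values only through BEC tumour, and without BEC tumour replicate 2 or 3 it was not tested. Neither these p-values nor the interval, which covers counting error only, are therefore support for a difference. Between BEC tumour and BEC normal the libraries overlapped, and the log2 fold change was 1.78 (SE 2.21, adjusted p = 0.52). HEC normal, HEC tumour and BEC normal were all below the floor, so no fold is given among them. Of the Prox1 exon bases, 133 of 8390 are shared with the antisense gene Prox1os, which was at 0 in all 12 libraries.

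**Figure D2:**
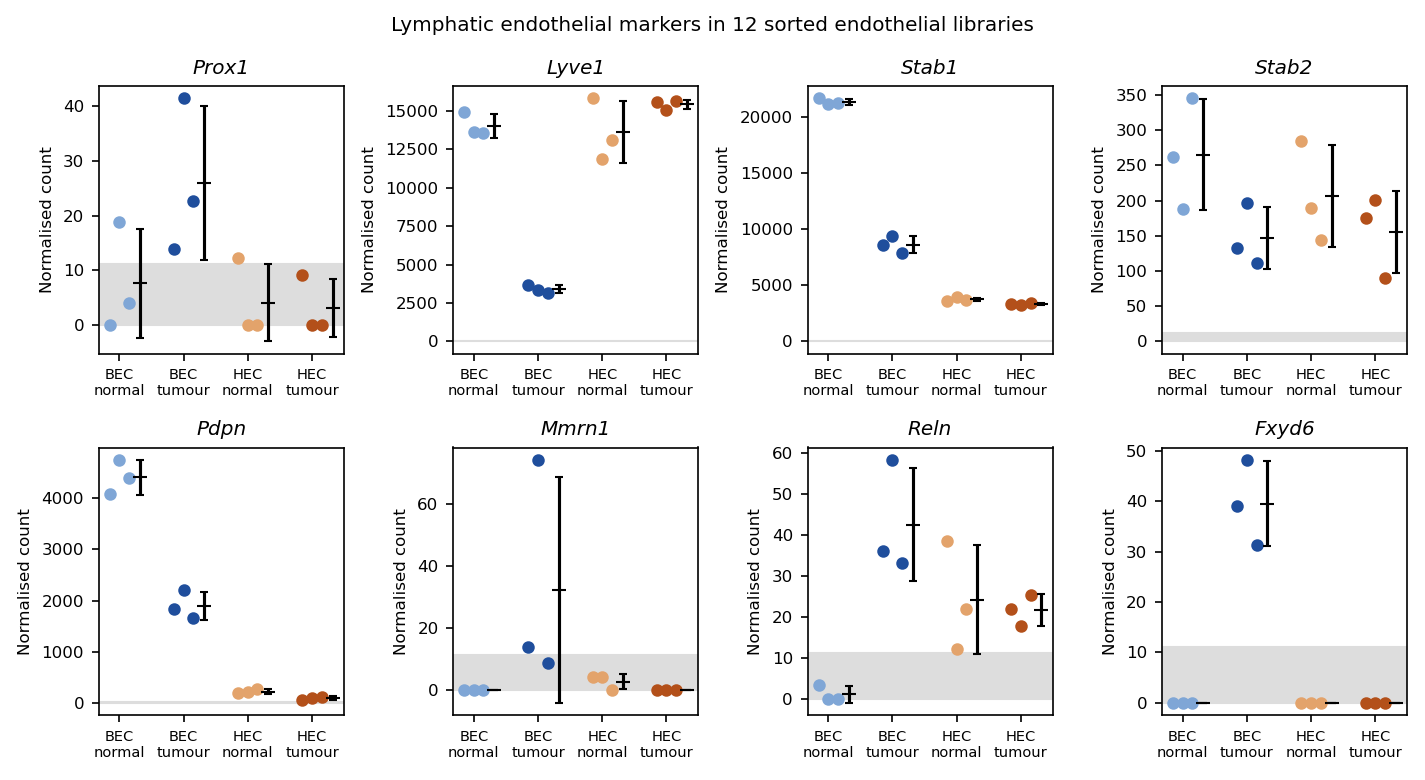
Normalised counts (vertical axis) of the 8 markers in the 12 endothelial libraries by group. Each point is a library, the bar beside it is the group mean with SD (n = 3), and the grey band is the range below 3 fragments per library. Lyve1 is low in BEC tumour alone, Stab1 and Pdpn are low in both HEC groups, and Fxyd6 has points above 0 in BEC tumour alone.

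Lyve1 (ENSMUSG00000030787, chr7:110850607-110863239, minus strand), the lymphatic hyaluronan receptor, was high in every endothelial library and lowest in tumour BECs. It stood at 14928, 13658 and 13531 normalised counts in BEC normal and at 3676, 3336 and 3161 in BEC tumour. HEC normal gave 15830.0, 11889 and 13082, and HEC tumour gave 15552, 15051 and 15650.0. All 3 BEC tumour libraries lay below the other 9, and BEC normal and HEC normal overlapped. Lyve1 did not pass the test between HEC normal and BEC normal (log2 fold change -0.05, SE 0.11, adjusted p = 0.72). It was higher in HEC tumour than in BEC tumour by 2.18 on the log2 scale (SE 0.11, adjusted p = 1.97e-92), a fold of 4.55. In BECs it was lower with tumour (log2 fold change -2.05, SE 0.11, adjusted p = 1.57e-81), whereas in HECs the change was 0.18 (SE 0.11, adjusted p = 0.18). The difference between these changes was 2.23 (SE 0.15, adjusted p = 1.18e-48).

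Stab1 (ENSMUSG00000042286, chr14:31139013-31168641, minus strand) encodes a scavenger receptor of sinusoidal and lymphatic endothelium and of macrophages. The BEC normal libraries gave 21703, 21139 and 21269.7 normalised counts, and BEC tumour gave 8588, 9391 and 7856. HEC normal gave 3614, 3924 and 3674, and HEC tumour gave 3344, 3231 and 3382. Each BEC normal library was above each BEC tumour library, these were above HEC normal, and HEC tumour was lowest, with no overlap. Stab1 was lower in HECs than in BECs both without tumour (log2 fold change -2.52, SE 0.07, adjusted p = 5.79e-270) and with tumour (-1.38, SE 0.07, adjusted p = 1.14e-79). It fell with tumour in BECs (-1.31, SE 0.07, adjusted p = 2.53e-75), and in HECs the change was -0.17 (SE 0.07, adjusted p = 0.051). The difference between the changes with tumour was 1.14 (SE 0.10, adjusted p = 5.67e-28). Stab1 shares 112 of 10288 exon bases with Nt5dc2 on the other strand, whose libraries ranged from 5663 to 11077 normalised counts.

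Stab2 (ENSMUSG00000035459, chr10:86841198-87008025, minus strand), the related hyaluronan scavenger receptor of sinusoids, was far lower and passed no test. It was at 262, 188 and 345 normalised counts in normal and 133, 196 and 112 in tumour BECs, and 285, 189 and 143 in normal and 176, 201 and 89.7 in tumour HECs. All 4 groups overlapped. The largest difference was between BEC tumour and BEC normal (log2 fold change -0.85, SE 0.40, adjusted p = 0.058), and it was called without BEC normal replicate 2 (adjusted p = 0.033) or without BEC tumour replicate 2 (adjusted p = 0.025). Per kilobase of exon, Stab1 was at 30.0 CPM and Stab2 at 0.44 CPM in BEC normal. In HEC normal the Stab1 level was 5.32 and the Stab2 level 0.34.

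Pdpn (ENSMUSG00000028583, chr4:143267431-143299564, minus strand), which encodes podoplanin, separated HECs from BECs by the widest margin among the markers present in all libraries. BEC normal gave 4083, 4756 and 4389.5 normalised counts, BEC tumour 1829, 2204 and 1663, HEC normal 186, 204 and 272, and HEC tumour 47.3, 97.7 and 119.5. No groups overlapped. It was lower in HECs than in BECs without tumour (log2 fold change -4.32, SE 0.24, adjusted p = 6.84e-69) and with tumour (-4.42, SE 0.25, adjusted p = 9.59e-66), folds of 19.99 and 21.5. It was also lower with tumour in BECs (-1.22, SE 0.24, adjusted p = 1.31e-06) and in HECs (-1.32, SE 0.26, adjusted p = 3.48e-06). The changes with tumour in HECs and BECs differed by -0.10 (SE 0.35, adjusted p = 0.84). Neither change with tumour passed a test against a fold of 2, with an adjusted p of 1.0 for each. Clec1b, which encodes the podoplanin receptor of platelets, averaged 14.8 ± 12.8 normalised counts in normal and 51.6 ± 13.1 in tumour BECs and was near 0 in HECs.

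The remaining 3 markers were rare transcripts. Mmrn1 (ENSMUSG00000054641, chr6:60924976-60989378, plus strand) encodes a multimeric secreted protein of lymphatic endothelium and platelets. It was at 0 in all libraries of BEC normal and HEC tumour, at 4.06, 4.07 and 0 in HEC normal, and at 13.9, 74.5 and 8.72 in BEC tumour. BEC tumour replicate 2 thus carried most of it, and replicate 3 was itself below the floor. The higher mean of BEC tumour therefore rested on replicate 2, and it is given as a description.

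Fxyd6 (ENSMUSG00000066705, chr9:45370185-45396159, plus strand), a small membrane regulator of the sodium pump, was at 39.0, 48.2 and 31.4 normalised counts in BEC tumour and at 0 in each of the other 9 endothelial libraries. Against the floor, its mean in BEC tumour was at least 3.43-fold higher than in BEC normal and at least 3.25-fold higher than in HEC tumour. Mmrn1 and Fxyd6 passed the filter on low values only through the group in which they were high, so a difference was fixed in advance by that filter, and no p-value is given for either. Without BEC tumour replicate 1 or 2 neither gene reached the minimum mean of 10, and without replicate 3 Fxyd6 did not.

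Reln (ENSMUSG00000042453, chr5:21884454-22344702, minus strand) encodes reelin, a secreted glycoprotein that lymphatic endothelium also makes. It was at 3.53, 0 and 0 in normal and 36.2, 58.4 and 33.1 in tumour BECs, and 38.5, 12.2 and 22.0 in normal and 21.9, 17.8 and 25.5 in tumour HECs. BEC normal lay below all 9 other libraries and held 1 fragment in all. Without tumour Reln was higher in HECs (20 fragments against 1, a ratio of 19.7, exact 95% interval 3.15 to 816, adjusted p = 4.47e-05). It was also higher in BEC tumour than in BEC normal (39 fragments against 1, a ratio of 33.8, interval 5.72 to 1369.8, adjusted p = 1.05e-06). With values divided by the step, the adjusted p of Reln in HEC normal against BEC normal was 0.0047. Over all settings the highest adjusted p was 0.00695 there and 0.0013 in BEC tumour against BEC normal. With tumour, HECs and BECs did not differ past the threshold (log2 fold change -0.97, SE 0.67, adjusted p = 0.22), although the libraries did not overlap. In HECs the change with tumour was -0.16 (SE 0.68, adjusted p = 0.90). Per kilobase Reln was the lowest marker in BEC tumour, at 0.027 CPM.

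Counted over the 8 markers, 1 was called higher (Reln) and 2 lower (Stab1 and Pdpn) in HEC normal than in BEC normal, where 17.1% of all 18511 genes tested were called higher and 15.1% lower. In HEC tumour against BEC tumour, 1 was higher (Lyve1) and 4 were lower (Stab1, Pdpn, Mmrn1 and Fxyd6), against 11.2% and 10.7% of all genes. Mmrn1 and Fxyd6 were in the test only through BEC tumour, so their calls here and in the next comparison are no support. Of these 4, 2 remained called without BEC tumour replicate 1 or 2. In BEC tumour against BEC normal, 3 were higher (Mmrn1, Reln and Fxyd6) and 3 lower (Lyve1, Stab1 and Pdpn), against 12.4% and 10.8%. Here 1 of the 3 higher genes was called without BEC tumour replicate 1 or 2. In HEC tumour against HEC normal, 0 were higher and 1 was lower (Pdpn), against 4.58% and 3.21%. The tumour-associated change was not the same in the 2 cell types for 4 markers, against 23.3% of all genes in either direction. Lyve1 and Stab1 were positive, and Mmrn1 and Reln negative. Mmrn1 was in this test only through BEC tumour, with both HEC groups below the floor, so its call is no support. The comparisons share groups, so these counts are not independent of each other.

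**Figure D3:**
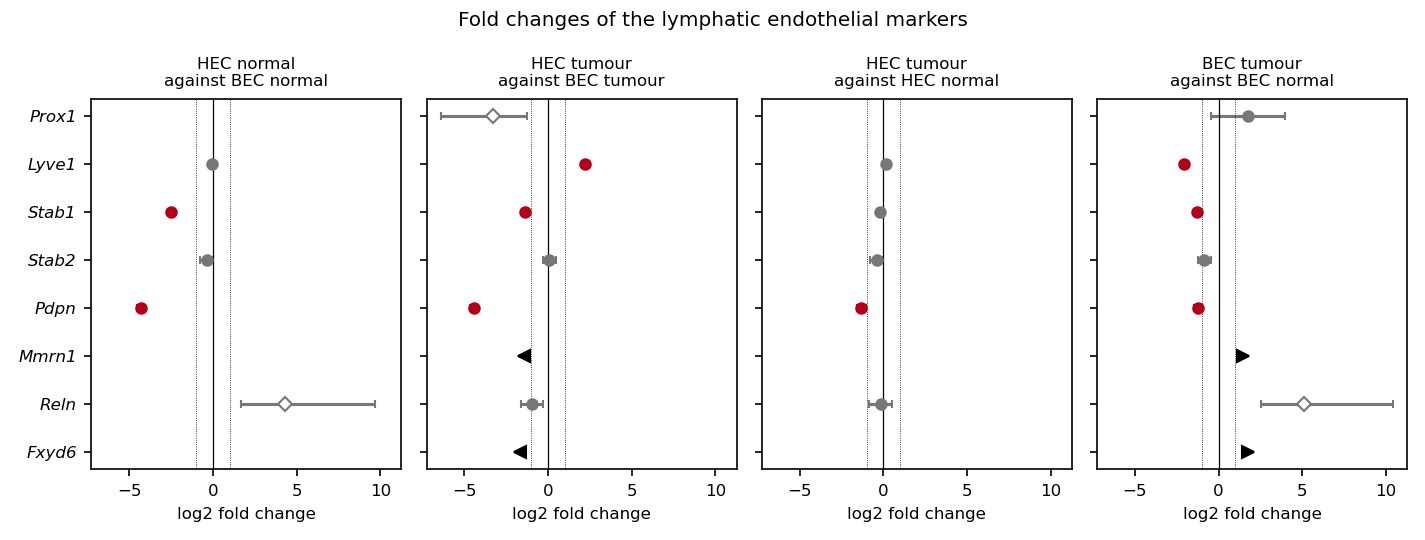
Fold change of each marker (horizontal axis, log2 scale) in the 4 endothelial comparisons. Circles are DESeq2 estimates with SE, red where called (adjusted p under 0.05 and a fold over 2); open diamonds are ratios of fragments with exact 95% intervals; triangles are lower bounds against a group at 0; a marker with both groups at or below the floor is left blank. Dotted lines mark a fold of 2. Pdpn lies to the left in all 4 comparisons, and Lyve1 lies to the right in HEC tumour against BEC tumour and to the left in BEC tumour against BEC normal.

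Markers of other cell types moved with some of these values. The macrophage list (Ptprc, Adgre1, Cd68, Csf1r, Lyz2, Mrc1, C1qa, C1qb, Cd163 and Fcgr1) summed to 108 to 129 CPM in normal and 1601 to 2218 in tumour BECs, and to 483 to 509 in normal and 356 to 374 in tumour HECs. In HEC normal against BEC normal 1 macrophage marker was called higher, Cd68, at 33269 ± 858 against 7514.5 ± 448 normalised counts. Csf1r, Mrc1 and Fcgr1 were called lower in that comparison. The sums in both HEC groups were mostly Cd68. All 10 macrophage markers were called higher in BEC tumour than in BEC normal, while Lyve1 and Stab1, which some macrophages make, were lower there. Of these 10, Adgre1, C1qa, C1qb and Cd163 were below the floor in every other endothelial group. They were in the test only through BEC tumour, so their calls are no support. In HEC tumour Adgre1, C1qa, C1qb and Cd163 were at 0 in all 3 libraries, and Cd68 was at 22614 to 24096 normalised counts. The epithelial list summed to 9.91, 12.8 and 78.3 CPM in BEC tumour replicates 1 to 3, and to no more than 4.93 in any other endothelial library. The platelet list, which is relevant to Mmrn1, summed to 22.0 to 28.0 CPM in BEC normal and 27.0 to 32.1 in BEC tumour. The fibroblast and reticular list summed to 204 to 212 CPM in BEC normal and 11.6 to 12.7 in HEC tumour. The sum lay between at 39.1 to 70.2 in BEC tumour and 23.2 to 23.7 in HEC normal, the order of Pdpn. Among the tested members, the group means of Pdgfrb, Col1a1 and Col1a2 kept that order, and those of Pdgfra, Dcn, Fap and Thy1 did not. Mean Pdgfra, for example, was 1082 for normal HECs against 1123 for normal BECs and 393 for tumour BECs, as normalised counts. The pan-endothelial list was at 2458 to 3263 CPM in all 12 libraries with all 10 markers above the floor. The part of these lists in the values of Lyve1, Stab1, Pdpn or the rare markers was not tested. In bulk libraries fewer cells of a type and less RNA per cell cannot be told apart.

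Adipocyte, lymphocyte and mesothelial lists completed the check. Adipocyte markers summed to at most 0.76 CPM and lymphocyte markers to at most 3.35 CPM, both in BEC tumour. The mesothelial list, which like lymphatic endothelium can hold podoplanin, summed to 15.5 to 16.0 CPM in BEC normal and 136 to 143 in HEC tumour. Its most abundant gene, Msln, was at 1066 ± 30 and 8753 ± 231.5 normalised counts in these groups. Upk3b was instead highest in HEC normal, at 423 ± 67 against 292 ± 44 in HEC tumour. Lrrn4 averaged 18.8 in BEC normal and 19.8 in HEC tumour. The high endothelial list summed to 1139 to 1488 CPM in HEC normal, 2494 to 3331 in HEC tumour and at most 417 in BECs. Its members Chst2 and Selp were nevertheless called lower in HEC normal than in BEC normal. The part of these lists in the markers' values was not tested either.

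**Figure D4:**
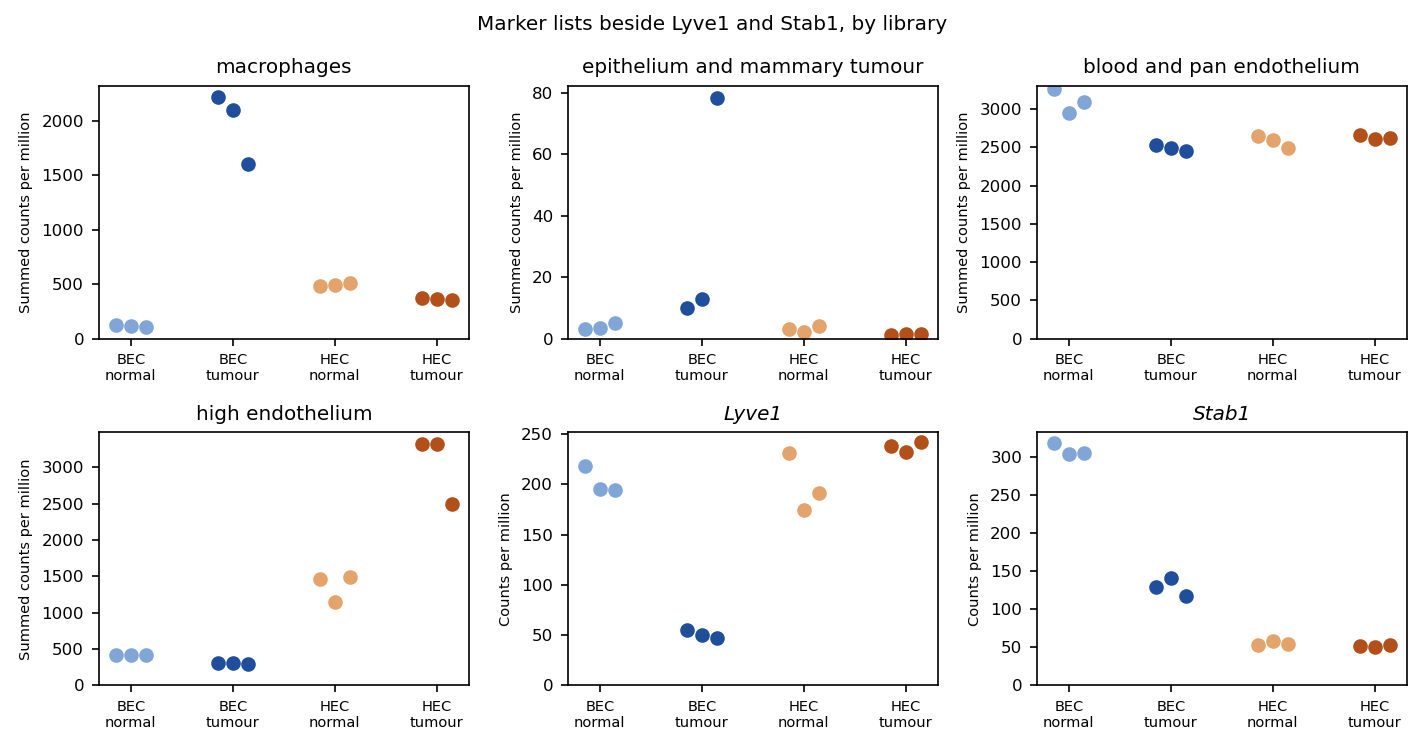
Summed CPM (vertical axis) of 4 marker lists and the CPM of Lyve1 and Stab1 in the 12 endothelial libraries, each point a library. The macrophage list is highest in BEC tumour, at 1601 to 2218, where Lyve1 is lowest, and the pan-endothelial list lies at 2458 to 3263 throughout.

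Other genes of lymphatic development were described by a list of 14, of which 13 were tested. In HEC normal against BEC normal 2 were higher and 6 lower, with a median log2 fold change of -0.49 beside 0.0046 over all genes, or -1.37 over the 12 that could be resolved with genes at 0 set at their bound. In BEC tumour against BEC normal 2 were higher and 6 lower (median -0.55, all genes 0.0083). In HEC tumour against BEC tumour 3 were higher and 6 lower (median -0.99, all genes 0.0060). In HEC tumour against HEC normal 0 were higher and 2 lower (median -0.32, all genes 0.019), of which Vegfc was below the floor in both groups. Ccl21a was among the higher genes in BEC tumour against BEC normal and the lower genes in HEC tumour against BEC tumour. It was in the test only through BEC tumour, so these calls are no support. The shares of all genes called were those given for the markers above. The most abundant were the receptor genes Nrp2 and Flt4, which encode the co-receptor and the receptor for VEGF-C, and the factors Gata2 and Nr2f2. Flt4 was at 5749 ± 77 normalised counts in normal and 8856 ± 352 in tumour BECs, and 7149.7 ± 113 in normal and 7491 ± 344 in tumour HECs, and no change passed a fold of 2. Nr2f2, a venous and lymphatic factor that acts with PROX1, was at 5244 ± 234 in BEC normal and 2474 ± 474 in BEC tumour (log2 fold change -1.08, adjusted p = 4.44e-11).

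Several lymphatic regulators were abundant in BEC normal and far lower in HECs, and others were higher in HECs. They are named after their values were seen. Foxc2, a factor for lymphatic valves, was at 1409.7 ± 87 normalised counts in normal and 137 ± 57 in tumour BECs, and 2.71 ± 4.70 in normal and 1.32 ± 2.28 in tumour HECs. Vegfc, the main lymphatic growth factor, was at 1604 ± 91 in BEC normal and 189.9 ± 58 in BEC tumour, and at 2.71 and 0 on average in HEC normal and HEC tumour. Sox18, which acts upstream of Prox1 in the embryo and is also made by blood vessels, was at 4933 ± 508 in normal and 171 ± 21 in tumour BECs, and 350.4 ± 93 in normal and 603 ± 92 in tumour HECs. In the other direction, Angpt2, which encodes a ligand of the TIE2 receptor, was at 627 ± 57 in BEC normal and 6198 ± 55 in HEC normal (log2 fold change 3.30), and the homeobox gene Hhex was at 989.6 ± 110.1 and 3450.4 ± 176 (log2 fold change 1.80). Both were called. The chemokine gene Ccl21a was at 37.7 ± 19.5 in BEC tumour and at 0 in the other 9 libraries. Like Ccl21a, the markers Fxyd6, Mmrn1 and Prox1 were above the floor in BEC tumour alone.

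Genes of lymph node sinus subsets were mostly scarce, with 4 of 7 tested. Marco, a scavenger receptor of medullary sinus lymphatic cells and of macrophages, was at 24806, 21653 and 14056 normalised counts in BEC tumour and at no more than 4.07 elsewhere. Ptx3 was at 3215 ± 260 in normal and 362 ± 56 in tumour BECs, and 24.4 ± 16.7 in normal and 0 in tumour HECs. Itga2b was highest in HEC normal at 1024 ± 65. Marco was called between HEC normal and each of BEC normal and HEC tumour, although all 3 groups were below the floor. Calls were 2 higher and 1 lower in HEC normal against BEC normal, where 17.1% and 15.1% of all genes were called. They were 0 and 3 in HEC tumour against BEC tumour (11.2% and 10.7%). In HEC tumour against HEC normal they were 0 and 2 (4.58% and 3.21%), and in BEC tumour against BEC normal 2 and 1 (12.4% and 10.8%). Marco was in these tests only through BEC tumour, so its calls are no support.

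Genes of hyaluronan synthesis and breakdown, the ligand side of Lyve1 and Stab2, were tested for 9 of 10. In HEC normal 0 were higher and 5 lower than in BEC normal, against 17.1% and 15.1% of all genes (median log2 fold change -1.20, all genes 0.0046). The most abundant were Cd44, a hyaluronan receptor, at 15509 ± 1630.2 in BEC normal and 26192 ± 2519.7 in HEC normal, Hmmr, another binding protein, and the hyaluronidase gene Cemip2, at 8704 ± 428 and 2853 ± 139. In HEC tumour against BEC tumour 0 were higher and 3 lower, against 11.2% and 10.7% of all genes. In BEC tumour against BEC normal 0 were higher and 3 lower, against 12.4% and 10.8%, and Lyve1 was also lower there. In HEC tumour against HEC normal 2 were higher (Has2 and Has3) and 0 lower, against 4.58% and 3.21%. Has2 was below the floor in both groups, so its call is not resolved.

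Partners of the rarer markers were examined too. Of the reelin receptors, Lrp8 was at 1806 ± 165 in normal and 6111 ± 228 in tumour BECs, and 2381 ± 235 in normal and 2364 ± 489 in tumour HECs. Vldlr was at 2418 ± 168, 489.7 ± 164, 10.04 ± 3.73 and 45.7 ± 16.6 in the same order. The adaptor gene Dab1 was not tested, having too few fragments. Among relatives of Mmrn1, Emilin1 was at 3715 ± 102 in BEC normal and 9805 ± 238 in BEC tumour, and Emilin2 at 2695 ± 110.3 and 1708 ± 455. Mmrn2, the other multimerin gene, was at 5360 ± 274 in BEC normal and 180.4 ± 49 in BEC tumour (log2 fold change -4.89, adjusted p = 6.45e-122). Among the FXYD and sodium pump genes, 5 of 8 were tested. Atp1b1, a pump subunit that FXYD proteins associate with, was at 511 ± 78 in BEC normal and 5976 ± 408 in BEC tumour (log2 fold change 3.54, adjusted p = 1.70e-253).

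The genes whose log2 normalised counts followed each marker most closely over the 12 libraries were listed as a description, since all 12 share the 4 group means. Lyve1 was followed by Egln3 (Pearson r = 0.988), Hspa9 (0.988) and Stfa2 (0.987). Stab1 was followed by Masp1 (0.998), Mbtps1 (0.997) and Anxa6 (0.997), and Pdpn by Pcca (0.996), Emp2 (0.994) and Slc38a10 (0.992). Among the markers themselves the closest pair was Stab1 and Pdpn (0.95), and the most opposed were Lyve1 and Fxyd6 (-0.99), Fxyd6 being at 0 wherever Lyve1 was high. Fxyd6 was followed by Tnfrsf13b, Cd300ld5 and Cd300ld2, each 1.000 after rounding and each at 0 outside BEC tumour. Mmrn1 was followed by Prrc2a (0.954), Gpr137b-ps (0.939) and Ccdc88b (0.937), and Reln by Fam124a (0.972) and Gm15107 (0.972). Prox1 and Stab2 had no close followers, with highest values of 0.912 for Gm6665 and 0.838 for Nrn1. Prox1 and Lyve1 were negatively related (-0.63). None of these genes was a marker of the list.

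In the EO771 line, set beside the endothelium as a contrast, Stab1 and Prox1 were the highest markers per length and Lyve1 was close to 0. Deposited counts of Prox1 were 42, 37 and 47 with vehicle and 60, 61 and 66 with 12-HETE, and those of Stab1 were 126, 128 and 126 with vehicle and 78, 123 and 133 with 12-HETE. Lyve1 had 1 count in 1 vehicle library, 1 in 1 12-HETE library and 0 in the other 4. Pdpn had 0 to 6 counts, Stab2 0 to 6, Reln 0 to 2, Fxyd6 0 to 1 and Mmrn1 0. The Prox1 counts of the treatments did not overlap and those of Stab1 did. The log2 fold change with 12-HETE was 0.58 for Prox1 (SE 0.28, adjusted p = 0.073) and -0.18 for Stab1 (SE 0.23, adjusted p = 0.55). This fit did not pair same-numbered libraries, and neither gene was called with a replicate block. These were the 2 of 8 markers tested there, 0 were called, and 10.2% of the 11602 EO771 genes tested were called in either direction.

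As CPM per kilobase of exon, Prox1 stood at 0.28 ± 0.04 in EO771 vehicle and 0.41 ± 0.01 in EO771 12-HETE, against 0.074 in the highest endothelial library, BEC tumour replicate 2. Lyve1 by contrast was at 0.0063 in EO771 vehicle against 17.3 in BEC tumour, its lowest endothelial group. The tables were counted and normalised separately, so these levels are set side by side with no test.

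**Figure D5:**
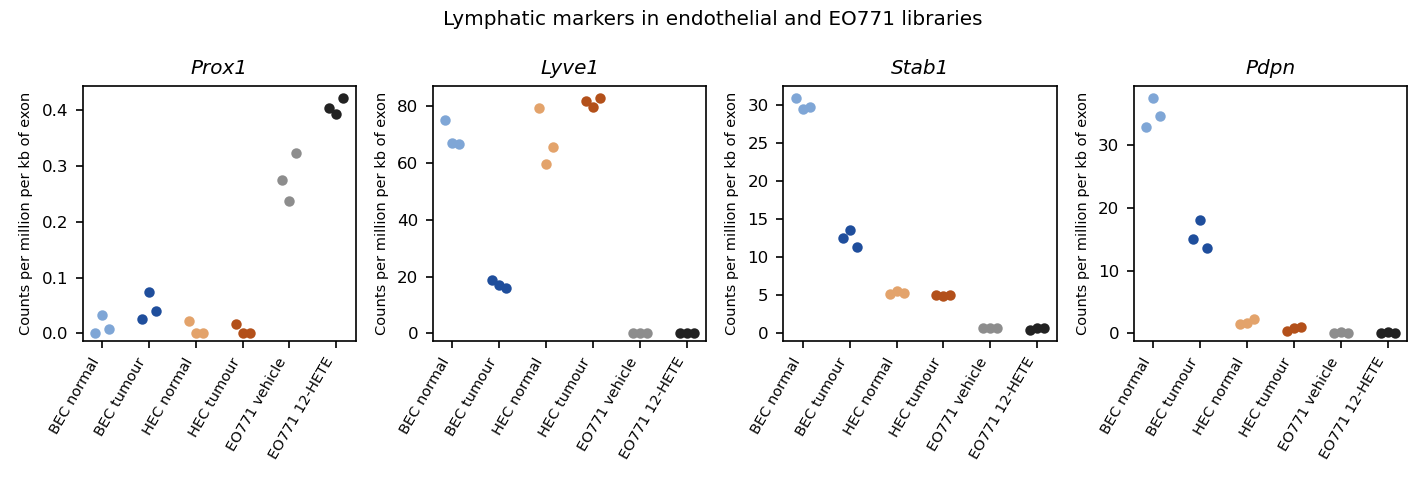
Level of 4 markers (vertical axis, CPM per kilobase of exon) in the 12 endothelial and 6 EO771 libraries, each point a library. Prox1 is highest in the EO771 libraries, at 0.24 to 0.42, whereas Lyve1, Stab1 and Pdpn are highest in endothelial libraries.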

How the data were processed

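RNA was extracted from sorted endothelial cells and EO771 cells and sequenced in 18 libraries. The authors aligned reads to GRCm38 with STAR, counted fragments with featureCounts and tested with DESeq2. Labels and methods name different library kits. The deposited endothelial values are estimated counts, whole numbers that rise in steps of about 3.75, whose origin is not given in the sources used here. The deposited EO771 values are raw counts. Strandedness of counting is not stated. Every column of both tables was matched to a sample, and 260 endothelial identifiers with no symbol stayed in the fit.

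Genes with a mean value of at least 10 were tested with the Wald test of DESeq2 v.1.42.0 in R v.4.3.3, in 1 fit over the 12 endothelial libraries and 1 over the 6 EO771 libraries. A gene was called at a Benjamini-Hochberg adjusted p under 0.05, over all genes tested, and a fold change over 2. The design was chosen for whole counts, and the test was kept for the stepped values. The quasi-likelihood test of edgeR v.4.0.16 was an alternative, beside other scaling, filters, a division by the step, leaving out each library and a replicate block. Both tools were tested on simulated data before use. Same-numbered EO771 vehicle and 12-HETE libraries deviated together (correlations of 0.11, 0.17 and 0.33), but the labels do not say that equal numbers pair.

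The 8 markers are given in every library whatever they showed. Related lists are given as counts, with the 2 to 4 most abundant genes named, and likeness as the 3 genes with the highest Pearson correlation of log2(normalised count + 1). Markers and lists were chosen with earlier results of these data known. Some genes that these rules would name are not reported here. Exon lengths came from the union of annotated exons on GRCm38.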

Additional observations from a re-analysis of the deposited data

Results flagged for a closer look

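The tumour-associated change was not the same in the 2 cell types for 4 of the 8 markers, by the DESeq2 test of that difference over all genes. It was 2.23 on the log2 scale for Lyve1 and 1.14 for Stab1, both lower with tumour in all 3 BEC libraries, against changes in HECs of 0.18 and -0.17. It was -11.20 for Mmrn1, a size that is not resolved because both HEC groups were at or below the floor of 3 fragments, and Mmrn1 was in the test only through BEC tumour. It was -5.19 for Reln, adjusted p = 5.33e-05, a size that rests on 1 fragment in BEC normal. Groups of 3 are too small for a search for outlying libraries.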

How the results depend on the processing

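Of the counts of called markers under an alternative, 178 stayed within 1.5 times the reported count and 8 did not. Of the fold changes of single markers, 483 kept their direction and their side of the threshold, 6 lost the call, 4 gained it and 9 turned, all 9 among changes that were not called. With a test against a log2 fold change of 1, 0 markers were lower in HECs with tumour than without, and 1 marker had a positive difference between the changes with tumour, Stab1 having lost the call. Fxyd6 also lost it between HEC tumour and BEC tumour, but it was in that test only through BEC tumour.

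With 1 library left out at a time, markers lower in HEC tumour than in BEC tumour ranged from 2 to 5, those higher in BEC tumour than in BEC normal from 1 to 3, and those with a negative difference between the changes with tumour from 1 to 2. Without BEC tumour replicate 1 or 2, Mmrn1 and Fxyd6 did not reach the minimum mean. Prox1 did not reach it without replicate 2 or 3, and Fxyd6 did not without replicate 3. Left-out libraries moved Lyve1 in HEC normal against BEC normal from -0.16 to 0.048 on the log2 scale, Stab2 in HEC tumour against BEC tumour from -0.15 to 0.36, Reln in HEC tumour against HEC normal from -0.48 to 0.34, the difference between changes for Pdpn from -0.38 to 0.19 and Stab1 in EO771 from -0.31 to 0.012.

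Correlations between the deviations of same-numbered endothelial libraries ran from -0.028 to 0.13, and the labels do not say that equal numbers pair. With a replicate block Prox1 was called lower in HEC tumour than in BEC tumour (log2 fold change -5.73, adjusted p = 0.036), and Fxyd6 was not. Fxyd6 was not called between BEC tumour and BEC normal either, so that 2 markers were higher in BEC tumour. Both Prox1 and Fxyd6 were in the test only through BEC tumour, so these calls are no support. In EO771 the replicate block gave Prox1 0.59 (adjusted p = 0.24), and no call changed. At a few fragments per library, a difference in Prox1, Mmrn1, Reln or Fxyd6 among groups at the floor was not detectable.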
